A study of Mus musculus with 6 samples.

Results

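FGF signaling was examined through 9 genes, the ligands Fgf5, Fgf7, Fgf10, Fgf18 and Fgf22 and the receptors Fgfr1, Fgfr2, Fgfr3 and Fgfr4, which were found by gene name among the 56941 genes of the count table. All 9 had enough reads to be tested, as did 32149 genes in all. Hair follicle stem cells (HFSCs), the CD34+/α6-integrin+ keratinocytes of the follicle bulge, had been sorted from dorsal skin of female mice of the strain B6;129S4-Dab2tm1Cpr/J at postnatal day (PD) 68, and their total RNA was sequenced. Both groups carried homozygous floxed Dab2 alleles and received tamoxifen at 75 mg per kg for 5 days. The WT mice lacked Cre, whereas the Dab2-cKO mice carried a tamoxifen-activated Cre (K14CreER) under the K14 promoter, which is active in basal keratinocytes and not in dermal cells. There were 3 biological replicates of each genotype.

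Fibroblast growth factors are secreted ligands that bind receptor tyrosine kinases together with heparan sulfate and act mainly through the ERK cascade. In skin, Fgf7 and Fgf10 are made by mesenchymal cells and signal to the epithelial form of Fgfr2. Fgf18 is known from the resting bulge, where it holds follicles in telogen, and Fgf5 from late anagen, where it brings hair growth to an end. The comparison asks how these opposed signals and their receptors differed between HFSCs of both genotypes at an age the study treats as the second telogen.

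The total count was 7040032 to 9518564 in WT-labelled libraries and 9374373 to 11696457 in Dab2-cKO-labelled ones. Transcripts of Dab2 itself, the target of the deletion, were more abundant under the Dab2-cKO label, at 1375 ± 68.2 normalized counts (SD, n = 3) against 327 ± 15.4, a log2 fold change of 2.08 ± 0.08 (SE), and the direction of every difference below rests on these labels. Mitochondrial genes took 12.99% to 14.4% of counts in WT-labelled libraries and 19.1% to 20.3% in the others. All 10 bulge markers were above the 95th percentile of chemosensory receptor genes in both groups. In Dab2-cKO-labelled libraries, 6 were higher, Cd34 and Itga6 among them, and 4 were lower, namely Lhx2, Sox9, Lgr5 and Foxc1. The summed level of the 10 was 9333 to 10669 normalized counts in WT-labelled libraries and 15676 to 15944 in Dab2-cKO-labelled ones. Markers of other cells also differed. The summed level of 13 hair shaft and inner root sheath markers was 229260 to 275482 normalized counts in WT-labelled libraries and 3179 to 3249 in Dab2-cKO-labelled ones, and 13 of 13 were lower. Of 10 fibroblast markers, 9 were higher and 1 lower, with a summed level of 104405 to 126193 against 360040 to 379473. Endothelial markers were higher in 7 of 7 cases (summed level 1378 to 1575 against 5065 to 5232), immune markers in 6 of 10 (1623 to 1844 against 6747 to 7037) and markers of differentiated epidermis in 6 of 7, with 1 lower (12186 to 14117 against 46697 to 47475). Proliferation markers were lower in 12 of 12 cases (10937 to 11914 against 3254 to 3356), melanocyte markers in 6 of 6 (3243 to 3588 against 1099 to 1119), and inner bulge and companion layer markers in 4 of 7, with 1 higher (10783 to 12620 against 4611 to 4817). The part of these cells in the differences below was not tested. None of the markers was at 0 in every library. In bulk RNA, fewer cells of a type and less RNA per cell cannot be told apart.

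The promoters of 3 of the members that differed, 1 ligand and 2 receptors, are shown as the 250 bases before the start site from RefSeq on the GRCm38.p6 build, which is not the GRCm39 build of the counts. Capitals mark the GC box letters GGGCGG on either strand.
Fgf5 (chr5:98253934-98254183, plus strand): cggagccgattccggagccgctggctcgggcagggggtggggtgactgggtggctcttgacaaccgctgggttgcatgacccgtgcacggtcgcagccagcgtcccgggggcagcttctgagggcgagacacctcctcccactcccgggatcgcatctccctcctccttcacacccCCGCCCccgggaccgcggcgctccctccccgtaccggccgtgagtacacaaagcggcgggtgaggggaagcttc
Fgfr3 (chr5:33721474-33721723, plus strand, the first of 2 start sites): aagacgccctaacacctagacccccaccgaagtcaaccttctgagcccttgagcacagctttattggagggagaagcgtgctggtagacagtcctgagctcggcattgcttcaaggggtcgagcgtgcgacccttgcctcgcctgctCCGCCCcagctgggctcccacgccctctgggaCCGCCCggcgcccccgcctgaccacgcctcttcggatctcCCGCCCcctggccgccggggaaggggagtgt
Fgfr4 (chr13:55152568-55152817, plus strand): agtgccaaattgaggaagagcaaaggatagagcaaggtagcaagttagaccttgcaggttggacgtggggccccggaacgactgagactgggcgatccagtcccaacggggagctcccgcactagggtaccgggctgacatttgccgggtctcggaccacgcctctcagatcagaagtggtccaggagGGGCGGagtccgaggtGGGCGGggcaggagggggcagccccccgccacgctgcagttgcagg
The Fgf5 stretch holds 1 GC box, that of Fgfr3 holds 3 and that of Fgfr4 holds 2. Fgf5 and Fgfr3 were lower and Fgfr4 higher in Dab2-cKO-labelled libraries, and no link of the motif to these directions was tested. Windows of 300 bases, from 250 before to 50 after the start, were given for 8 of the 9 members, with none for Fgfr1. The GC box was found in 7 of these 9 windows, both of Fgfr3 among them, against 35.7% of 32841 windows of all genes. The windows of Fgf7 and Fgfr2 held none. The TCF/LEF letters CTTTGA or CTTTGT, on either strand, were found in the windows of Fgf5 and Fgf7, against 31.2% of all windows. TATAAA was found in that of Fgf5 alone, against 13.6%. This match lies 34 bases after the start site, outside the stretch shown above. The share of G and C was 68.3% for Fgf5, 69.7% for the first Fgfr3 window and 65.3% for Fgfr4, with a median of 52.7% over all windows. Fgfr2, at 43.7%, and Fgf7, at 45.7%, lay below that median. These 3 motifs were chosen after the members' values were seen, and a match is a description of the letters only.

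Of the 9 members, 2 were higher and 4 were lower in Dab2-cKO-labelled libraries, and 3 were not called at an edgeR adjusted p under 0.05. Among all genes tested, 28.2% were called, 16.8% higher and 11.5% lower. Calls were more frequent when only the 14801 genes with a mean count of at least 50 were tested, with 4461 higher and 4062 lower. Fgf5 and Fgf18 lay below that mean. The median log2 fold change of the members was -0.18, and that of all genes was -0.02. No ligand was higher by the test, and the 4 receptors divided evenly by direction.

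**Figure D1:**
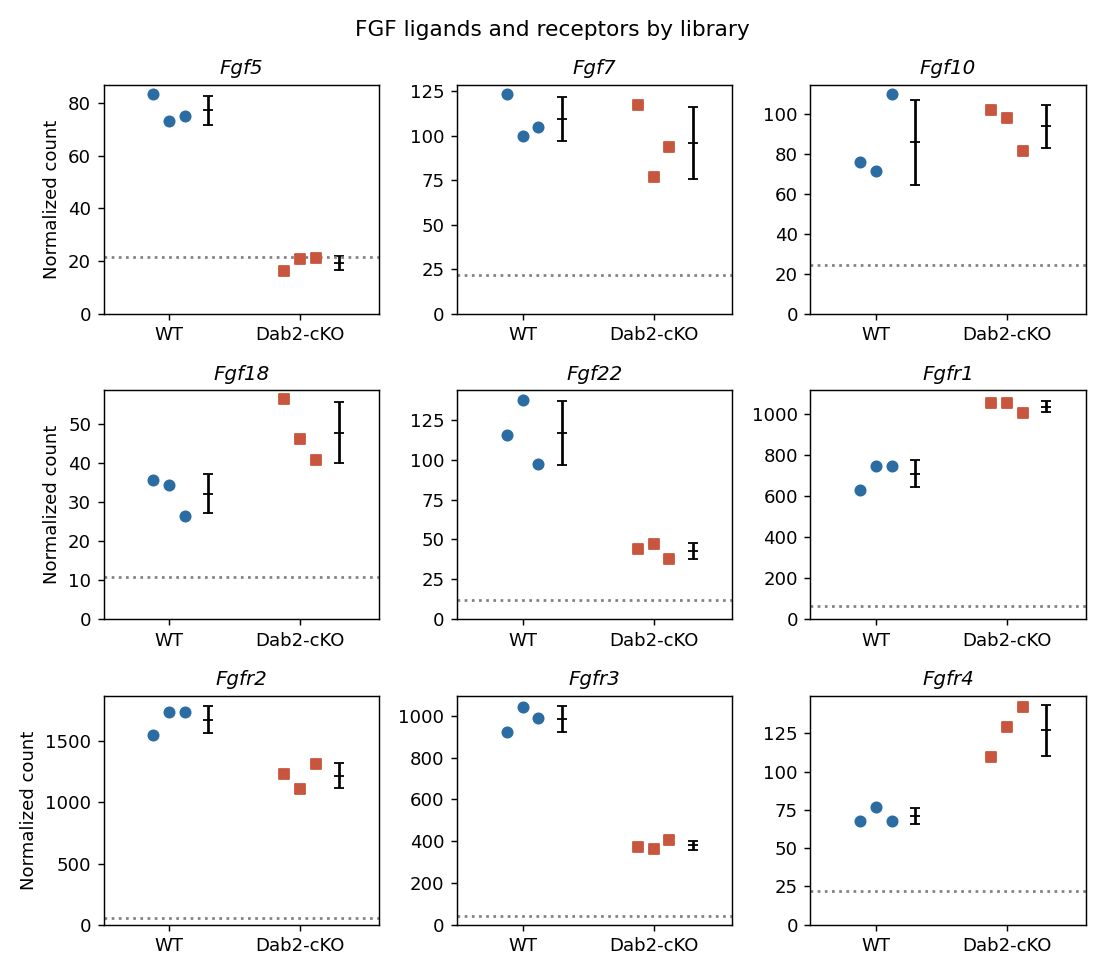
Normalized count of each member (y axis, from 0) in the 3 libraries labelled WT (circles) and the 3 labelled Dab2-cKO (squares), with the mean and SD as bars and a dotted line at the count the gene would have at the median level per kb of chemosensory receptor genes. Fgf5 falls from 73.1 to 83.5 down to 16.2 to 21.0, onto its dotted line, while Fgf7 and Fgf10 overlap between the groups.

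Fgf5 (ENSMUSG00000029337, GRCm39 chromosome 5, 98401780 to 98452320, plus strand), the ligand that ends anagen, showed the largest difference of the 9. Its normalized counts were 83.5, 73.1 and 75.2 in WT-labelled replicates 1 to 3 and 16.2, 20.7 and 21.0 in Dab2-cKO-labelled ones. All 3 libraries labelled Dab2-cKO lay below all 3 labelled WT. Among all genes tested, 38.3% showed no overlap between the groups, in one direction or the other. The mean was 77.3 ± 5.50 against 19.3 ± 2.68 (SD, n = 3), 4.00-fold lower, and the log2 fold change was -2.0 ± 0.27 (SE, edgeR adjusted p = 2.37e-09). For comparison, 1526 chemosensory receptor genes were taken, which HFSCs are not known to use. Of these, 99.2% had a count in at least 1 library. At their median level over all 6 libraries, a gene of the exon length of Fgf5 would have had 21.5 normalized counts. Fgf5 in Dab2-cKO-labelled libraries was at the level of that background, which was not taken for each group separately. The hair shaft markers were lower in the same libraries, and their part in the difference was not tested.

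Fgf18 (ENSMUSG00000057967, chromosome 11, 33067014 to 33097828, minus strand), the telogen ligand, did not pass the test. It had 35.6, 34.3 and 26.5 normalized counts in WT-labelled libraries and 56.3, 46.0 and 40.8 in Dab2-cKO-labelled ones. The 3 values of the second group were above the 3 of the first, on raw counts of only 31 to 59 per library. A lack of overlap was common, at 38.3% of all genes tested. The log2 fold change was 0.58 ± 0.27 with an edgeR adjusted p of 0.11, and its 95% interval without adjustment ran from 0.04 to 1.12. Within a library, the log2 ratio of Fgf18 to Fgf5, on normalized counts not divided by exon length, was -1.51 to -1.09 in WT-labelled libraries and 0.96 to 1.79 in Dab2-cKO-labelled ones. Fgf18 thus had fewer counts than Fgf5 in every library labelled WT and more in every library labelled Dab2-cKO. Most of this shift came from Fgf5, and the ratio was given no test.

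Fgf22 (ENSMUSG00000020327, chromosome 10, 79590875 to 79594431, plus strand), a ligand of the Fgf7 and Fgf10 subfamily, was lower. Its normalized counts were 116, 137 and 97.4 in WT-labelled libraries and 43.9, 47.2 and 37.5 in Dab2-cKO-labelled ones. The groups did not overlap, and the gene was 2.72-fold lower with a log2 fold change of -1.44 ± 0.20 (edgeR adjusted p = 1.07e-08). The value is uncertain because 81.7% of its exon bases also lie in exons of Rnf126, a ubiquitin ligase gene on the opposite strand, and the strand setting of the counting was not given in the sources used here. Rnf126 had 283 ± 27.9 normalized counts against 236 ± 12.5, a log2 fold change of -0.27 ± 0.11 that was not called (edgeR adjusted p = 0.0629), although it was called lower under 6 of 13 alternative settings. The log2 ratio of Fgf22 to Rnf126 was -1.64 to -1.10 in WT-labelled libraries and -2.73 to -2.30 in the others. It was given no test. With the strand setting unknown, this ratio cannot settle how far reads of the shared bases enter the Fgf22 count.

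Fgf7 (ENSMUSG00000027208, chromosome 2, 125876578 to 125934218, plus strand), also known as keratinocyte growth factor, had 124, 100.2 and 105 normalized counts in WT-labelled libraries and 117, 77.1 and 93.8 in Dab2-cKO-labelled ones. The groups overlapped, and the log2 fold change of -0.18 ± 0.17 was not called (edgeR adjusted p = 0.537), with a 95% interval of -0.52 to 0.17. Fgf10 (ENSMUSG00000021732, chromosome 13, 118806327 to 118928672, plus strand) had 75.7, 71.3 and 110.2 normalized counts in WT-labelled libraries and 102, 97.8 and 81.7 in Dab2-cKO-labelled ones. Here too the groups overlapped. Its log2 fold change was 0.12 ± 0.19 (edgeR adjusted p = 0.71), with a 95% interval of -0.25 to 0.49, and its sign turned with upper-quartile scaling and with scaling by library size alone. With scaling by library size alone, Fgf7 was called lower at -0.61 (edgeR adjusted p = 0.00323). With TMM scaling neither mesenchymal ligand was called, in libraries where 9 of 10 fibroblast markers were higher. Of 10 dermal papilla markers, 2 were higher and 7 lower, with a summed level of 3982 to 4342 against 2936 to 3025 normalized counts. The part of either cell type in the levels of Fgf7 and Fgf10 was not tested.

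**Figure D2:**
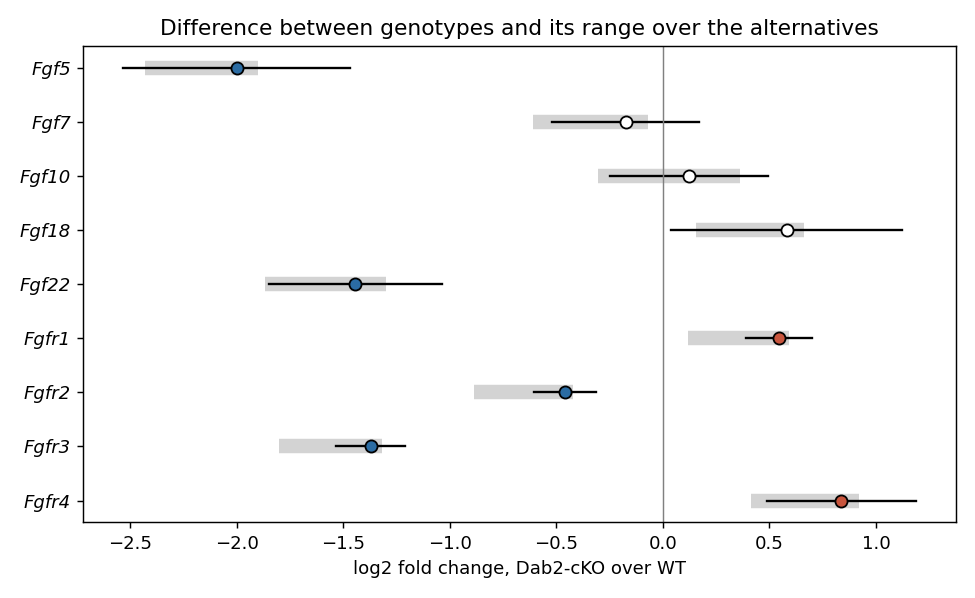
The log2 fold change of each member (x axis, libraries labelled Dab2-cKO over those labelled WT), with its 95% interval as a line and its range over the alternative settings as a grey band. Filled points were called, Fgf5, Fgf22, Fgfr2 and Fgfr3 lower and Fgfr1 and Fgfr4 higher, and only the band of Fgf10 crosses 0.

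Among the receptors, Fgfr3 (ENSMUSG00000054252, chromosome 5, 33879018 to 33894412, plus strand), known as a brake on growth in cartilage and also made in keratinocytes, differed most. Its normalized counts were 921, 1043 and 989 in WT-labelled libraries and 374, 362 and 405 in Dab2-cKO-labelled ones. Every library labelled Dab2-cKO lay far below the lowest library labelled WT. The mean was 984 ± 61.1 against 380.4 ± 22.1, 2.59-fold lower, with a log2 fold change of -1.37 ± 0.08 (edgeR adjusted p = 6.42e-24). Of its exon bases, 13.1% overlap G630022F23Rik on the opposite strand, which had 21.8 normalized counts in WT-labelled libraries and 12.9 in the others.

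Fgfr2 (ENSMUSG00000030849, chromosome 7, 129763471 to 132725079, minus strand), the receptor for Fgf7, Fgf10 and Fgf22 in its epithelial form, was lower by a smaller margin. It had 1548, 1738 and 1738 normalized counts in WT-labelled libraries and 1236, 1107 and 1314 in Dab2-cKO-labelled ones. No value of one group reached the other, and the log2 fold change was -0.46 ± 0.07 (edgeR adjusted p = 2.37e-07), 1.37-fold lower. Of its exon bases, 2.77% overlap Ctbp2 on the same strand. Counts per gene do not separate the epithelial from the mesenchymal splice form.

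Fgfr1 (ENSMUSG00000031565, chromosome 8, 26003670 to 26066824, plus strand), the receptor typical of mesenchymal cells, was higher. Its normalized counts were 632, 749 and 749 in WT-labelled libraries and 1054, 1054 and 1005 in Dab2-cKO-labelled ones. The mean was 710.1 ± 67.2 against 1038 ± 27.9, 1.46-fold higher, with a log2 fold change of 0.54 ± 0.08 (edgeR adjusted p = 1.14e-08). Fgfr4 (ENSMUSG00000005320, chromosome 13, 55300352 to 55316572, plus strand), best known as the receptor for Fgf19-type hormones in liver, had 67.9, 76.7 and 67.5 normalized counts in WT-labelled libraries and 110, 129 and 142 in Dab2-cKO-labelled ones. It was 1.79-fold higher, with a log2 fold change of 0.84 ± 0.17 (edgeR adjusted p = 6.42e-05). For both receptors the groups did not overlap. Both calls were lost when libraries were scaled by their size alone, at log2 fold changes of 0.12 for Fgfr1 and 0.41 for Fgfr4, a scaling under which the median of all genes was -0.45. The fibroblast markers were higher in the same libraries as Fgfr1, and their part in its level was not tested.

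The receptor composition can be read within each library, where scaling between libraries has no part. Per kb of exon, Fgfr1 made up 16.8% ± 0.545 (SD, n = 3) of the 4 receptors in WT-labelled libraries and 31.2% ± 2.13 in Dab2-cKO-labelled ones. Fgfr3 went the other way, from 33.7% ± 0.593 to 16.5% ± 0.253. Fgfr2 held the largest share in every library, with 44.1% to 45.2% in the first group and 39.0% to 42.5% in the second. Fgfr4 had 4.84% ± 0.295 against 11.01% ± 1.24. The shares of each receptor did not overlap between the groups. On normalized counts not divided by exon length, the log2 ratio of Fgfr1 to Fgfr3 was -0.54 to -0.40 in WT-labelled libraries and 1.31 to 1.54 in Dab2-cKO-labelled ones, and the order of their mean levels per kb turned as well. The sum of the 4 receptors, which unlike the shares does depend on the scaling between libraries, was 331 ± 22.1 normalized counts per kb against 261 ± 11.3. These shares and ratios use the same counts as the tests above and were given no test of their own.

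**Figure D3:**
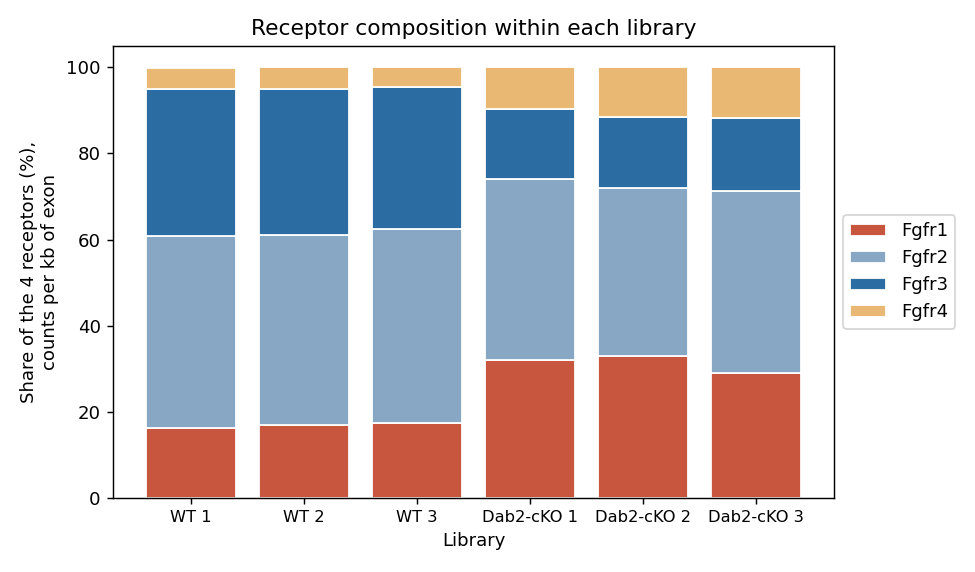
Share of each receptor among the 4 (y axis, percent of normalized counts per kb of exon, stacked) in each of the 6 libraries. The share of Fgfr1 rises from 16.2% to 17.3% in WT-labelled libraries to 28.9% to 33.0% in Dab2-cKO-labelled ones, and that of Fgfr3 shrinks from 33.1% to 34.1% down to 16.4% to 16.8%.

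Levels of different genes were compared per kb of exon. In the libraries labelled WT, Fgfr2 was the most abundant member at 148 ± 9.69 normalized counts per kb, followed by Fgfr3 at 112 ± 6.93, and these did not overlap. Fgfr1, at 55.6 ± 5.26, and Fgf22, at 47.3 ± 8.06, overlapped each other. The rank of Fgf22 is uncertain in both groups, because of the exon overlap with Rnf126 given above. Below Fgf7, at 24.9 ± 2.81, the neighbours Fgf5, Fgf10, Fgfr4 and Fgf18 overlapped in turn, from 17.8 ± 1.26 down to 14.6 ± 2.24. In the Dab2-cKO-labelled libraries, Fgfr2 at 108 ± 9.24 was followed by Fgfr1 at 81.2 ± 2.19 and Fgfr3 at 43.1 ± 2.50, with no overlap. Fgfr4, Fgf7, Fgf18, Fgf10 and Fgf22 then overlapped in turn, from 28.7 ± 3.72 to 17.3 ± 1.99, and Fgf5 stood apart at 4.43 ± 0.615. The chemosensory receptor genes had a median of 4.94 and a 95th percentile of 11.8 normalized counts per kb. Fgf5 in Dab2-cKO-labelled libraries was the only member whose mean lay under that percentile, and below the median too.

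**Figure D4:**
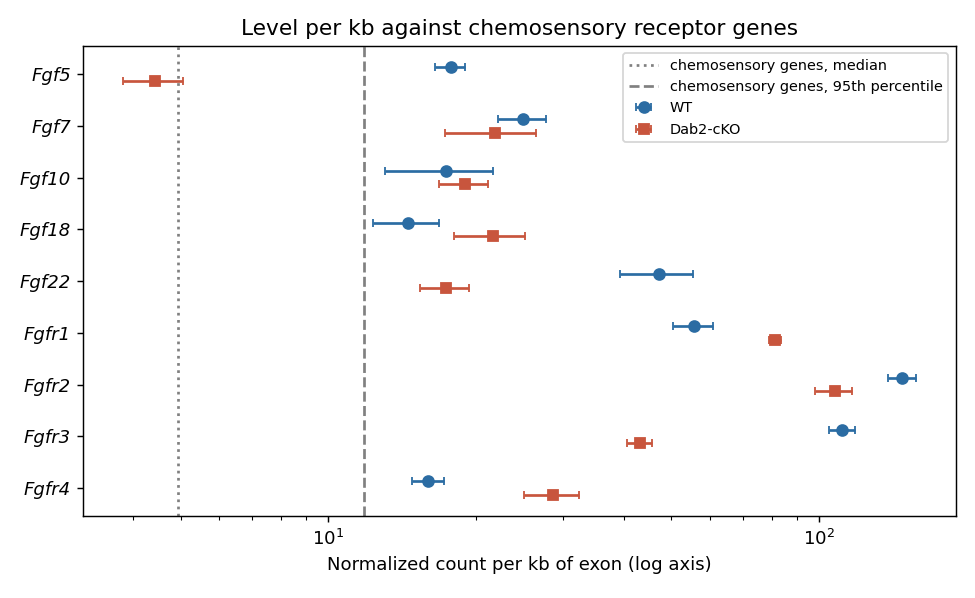
Mean normalized count per kb of exon (x axis, log scale) of each member in WT-labelled libraries (circles) and Dab2-cKO (squares), with SD bars (n = 3). The dotted and dashed lines mark the median (4.94) and 95th percentile (11.8) of 1526 chemosensory receptor genes, and only Fgf5 in Dab2-cKO-labelled libraries lies to their left.

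The genes whose levels followed a member most closely over the 6 libraries were found, for members with a mean of at least 100 normalized counts, as the 3 with the smallest root mean square distance on the centred log2 scale among 10764 candidates. For Fgfr3 these were Fam83g, Otub2 and Alcam, at distances of 0.0484 to 0.0549. For Fgfr1 they were Camkk2, Rps27 and Krcc1, at 0.0231 to 0.0324, and for Fgfr2 Cecr2, Cenpc1 and Cab39, at 0.0257 to 0.0318. Fgf7 was matched by AC168977.1, Lman2l and Bbs4, at 0.0699 to 0.0738. With 6 libraries in 2 groups, many genes share such a pattern.

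Around the ligands and receptors, 82 other genes of FGF signaling were tested. Of these, 22 were higher and 16 lower, 46.3% called, with a median log2 fold change of -0.01. Over all genes tested, 28.2% were called. When only the 14801 genes with a mean count of at least 50 were tested, 4461 were higher and 4062 lower, a larger share than 46.3%. Of 12 other FGF ligands, 1 was higher and none lower. This was Fgf1, the ligand that binds all FGF receptors, with 96.7 against 167 normalized counts and a log2 fold change of 0.78 ± 0.15 (edgeR adjusted p = 2.51e-05), a call lost with scaling by library size alone. Fgf2, a ligand stored in the matrix, had 148 against 145 and was not called, but it was called lower at -0.45 with scaling by library size alone. Of its exon bases, 44.9% overlap Nudt6 on the opposite strand. Of the 4 intracellular FGF homologous factors, which are not secreted, 1 was higher and 3 were not called.

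Of 6 co-receptors, 2 were higher and 2 lower. Fgfrl1, a receptor without a kinase domain, was higher by a log2 fold change of 0.83 ± 0.17, whereas Flrt3, a membrane protein that binds FGF receptors, was lower at -1.33 ± 0.09. Among 20 heparan sulfate carriers and FGF binding genes, 6 were higher and 2 lower. Sdc3, a syndecan best known from nerve cells, had the largest rise at 1.68 ± 0.10, and Fgfbp1, which frees FGFs from the matrix, rose by 0.88 ± 0.11. Sdc1, the main syndecan of keratinocytes, fell from 2453 to 1334 normalized counts, a log2 fold change of -0.88 ± 0.07.

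Of 19 receptor adaptors and ERK cascade genes, 5 were higher and 6 lower. Gab2, an adaptor, was higher at 1.03 ± 0.12, while Braf, a kinase upstream of MEK, had the largest fall at -1.50 ± 0.08. Map2k1, which encodes MEK1, was called higher at 0.58 ± 0.10, but it was at 0.15 and not called with scaling by library size alone, and 31.4% of its exon bases lie in Snapc5 on the opposite strand. Of 12 feedback inhibitors, 2 were higher and 4 lower. Spry2 and Spry1, which dampen receptor signals, were higher at 0.83 ± 0.16 and 0.44 ± 0.11, while Spry4 was not called at 0.17 ± 0.16, and with scaling by library size alone Spry1 was at 0.01 and not called and Spry4 at -0.26. Dusp6, an ERK phosphatase, was lower at -0.49 ± 0.10, with 23% of its exon bases in noncoding genes on the opposite strand.

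Of 9 target transcription factors, 5 were higher and 2 lower. Etv4, an ETS factor that follows FGF signals in many tissues, fell from 194 to 58.5 normalized counts, a log2 fold change of -1.71 ± 0.17 (edgeR adjusted p = 5.05e-14). Etv5 was called at -0.34 ± 0.13 (edgeR adjusted p = 0.0414) although its libraries overlapped between the groups, and the call was lost with DESeq2, with the replicate number as a block and without any 1 of 3 libraries (WT replicate 2, WT replicate 3 or Dab2-cKO replicate 3), at -0.17 without WT replicate 3. Etv1 was higher at 0.94 ± 0.14, as was Fos at 2.87 ± 0.08, an immediate early gene that tissue dissociation is also known to induce. Usual readouts of FGF receptor activity differed in both directions, with Etv4 and Dusp6 lower and Spry2 higher.

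**Figure D5:**
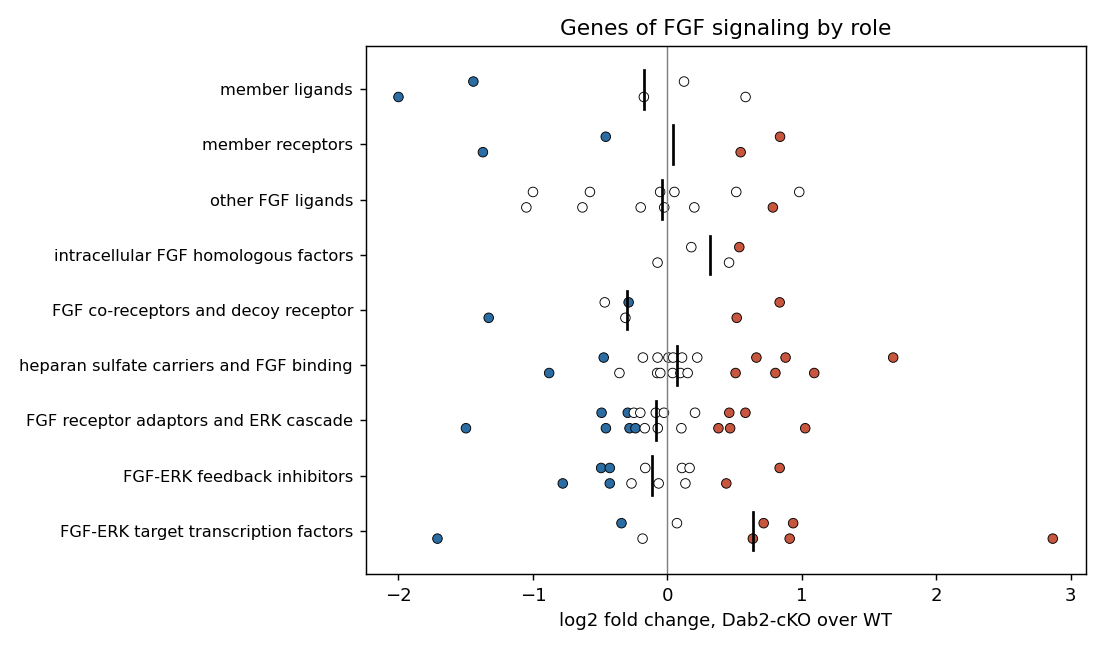
The log2 fold change (x axis, libraries labelled Dab2-cKO over those labelled WT) of each tested gene of FGF signaling by role (rows), with red points called higher, blue points called lower, open points not called and a vertical bar at the median of each row. Called genes lie on both sides of 0 in every row but those of the member ligands, the other FGF ligands and the intracellular factors. Fos (2.87) and Fgf5 (-2.0) are the ends of the range.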

How the data were processed

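Total RNA libraries (SMARTer Stranded kit for low input) of sorted HFSCs had been sequenced as paired ends. The authors trimmed reads with fastp 0.23.4, aligned them to GRCm39 with HISAT2 2.2.1 and deposited counts per gene from featureCounts 2.0.6, with no normalization. The strand setting, the treatment of multimapping reads and the annotation release were not given in the sources used here. A table of the authors' own DESeq2 comparison, with fold changes, p-values and scaled counts, was not used.

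Columns headed WT and FL-FL were taken as WT and Dab2-cKO. Both genotypes carry floxed alleles, and a plot heading of the study that equates FL-FL with Dab2-cKO decided this, so every direction depends on it. Labels gave 3 replicates per genotype.

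The counts were filtered, scaled by TMM and compared by the quasi-likelihood test of edgeR 4.0.16 (R 4.3.3) with robust dispersions and Benjamini-Hochberg adjustment over 32149 genes, with calls at an adjusted p under 0.05. For normalized counts, each count was divided by the TMM-adjusted size of its library and multiplied by the mean of these sizes. The fit was tested on simulated counts. Exon lengths and overlaps came from GENCODE vM39 (GRCm39), which matched 56323 of 56941 genes. Totals of 7040032 to 11696457 counts per library limit the precision for genes of few counts, and replicates of a genotype differed beyond sampling noise. The members and gene lists were chosen with earlier results of these data known. The ratios other than Fgf18 to Fgf5 and the values of Rnf126 and G630022F23Rik were added after seeing the data. Spry3 was not analysed here.

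Named were the 9 members, Dab2, and of each other list the called genes with a mean of at least 100 normalized counts and no overlap between groups, up to 3 rises and 3 falls, from which examples are given, plus Spry1, Spry2, Spry4, Dusp6, Etv4, Etv5, Fgfrl1, Fgf1 and Fgf2. Alternatives were DESeq2 1.42.0, upper-quartile scaling, library size only, TMM without mitochondrial and the 100 most abundant genes, testing without the low-count filter or only from a mean count of 50, a block for the replicate number, each library left out, and receptor shares without division by exon length.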

Additional observations from a re-analysis of the deposited data

How the results depend on the processing

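Of 115 values for the 9 members under the alternatives, 110 kept their direction and their side of the threshold. With library size only, where the median of all genes moved to -0.45, Fgfr1 (0.12) and Fgfr4 (0.41) were no longer called, Fgf7 was called lower (-0.61, edgeR adjusted p = 0.00323), Fgf2 was called lower (-0.45), Fgf10 turned to -0.31 and Spry4 to -0.26. Fgf1 (0.36), Map2k1 (0.15) and Spry1 (0.01) also lost their calls. The members called higher then numbered 0, and the other FGF genes 12 higher and 43 lower. Upper-quartile scaling moved the median to -0.17 and Fgf10 to -0.019. Genes called higher and lower were 5387 and 3682, against 4281 and 5561 with upper-quartile scaling and 2686 and 11168 with library size only. Fgf2 ranged from -0.137 to 0.0101 with each library left out. Etv5 was not called with DESeq2, the replicate block, or without WT replicate 2, WT replicate 3 or Dab2-cKO replicate 3, and ranged from -0.49 to -0.17 with a library left out. Rnf126 was called lower under 6 alternatives, at -0.70 to -0.30. Fgf5 and Fgf18 gave no value at a mean count of at least 50. Without division by exon length, the receptor shares were 20.6% and 37.6% for Fgfr1, 48.7% and 44.1% for Fgfr2, 28.6% and 13.8% for Fgfr3, and 2.06% and 4.59% for Fgfr4, in the libraries labelled WT and Dab2-cKO.

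Samples with the same number hardly deviated together over all genes tested (correlations of 0.0231, 0.0117 and 0.00759). Counting noise in genes of few counts lowers such correlations, and whether these samples shared a preparation was not tested. With the replicate block, 2 members were called higher and 4 lower, with Fgf5 at -2.0 and Fgfr3 at -1.37, and 23 other FGF genes were higher and 16 lower.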
